A study of Mus musculus with 26 samples.

Results

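The genes described here encode catalase (Cat), the superoxide dismutases (Sod1, Sod2, Sod3) and 5 glutathione peroxidases (Gpx1, Gpx3, Gpx4, Gpx7, Gpx8). They were chosen by gene symbol, and all 9 were found among the 20430 symbols of the RNA tables and the 19941 symbols of the ribosome footprint tables. The cells were NIH3T3, an established mouse fibroblast line of embryonic origin. Heat, oxidative (H2O2) and KCl stress were applied, with 2 libraries in every group. In the heat experiment, polyA-selected RNA was sequenced from cells at 44 °C for 2 h, from cells at 42 °C for 8 h and from their own control. In the other experiment, RNA and ribosome footprints (the stretches of mRNA that ribosomes protect) were sequenced after H2O2 for 2 or 7 h, after KCl for 2 or 7 h and from 1 control that both stresses share. The labels give no dose of H2O2 or KCl, and they do not say whether the 2 libraries of a group came from separate cultures, so p-values measure the spread between these libraries, which may be technical. Footprints of the heat experiment were not analysed here.

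Superoxide dismutases turn superoxide into hydrogen peroxide, which catalase and the glutathione peroxidases then break down. Catalase works in peroxisomes, Sod1 in the cytosol, Sod2 in the mitochondrial matrix and Sod3 outside the cell. Gpx1 (cytosol and mitochondria), Gpx3 (secreted) and Gpx4, which reduces lipid hydroperoxides in membranes, are selenoproteins: they carry selenocysteine, inserted at a UGA codon that would otherwise end translation. Gpx7 and Gpx8 reside in the endoplasmic reticulum, have cysteine in its place and take part in the oxidative folding of proteins.

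The RNA libraries held between 24441877 and 45244430 expected counts and the footprint libraries between 1460751 and 5168537, the lowest being H2O2 2 h replicate 1. Fibroblast markers (8 genes, among them Vim and Col1a1) summed to between 4147 and 11276 TPM, a level corrected for gene length and library size, over the 16 RNA libraries. The 5 epithelial markers summed to between 36.8 and 112 TPM, almost all of it from Krt18 and Krt19, with Epcam, Cdh1 and Krt8 at 1.12 TPM or less. The 4 leukocyte markers summed to between 5.33 and 44.7 TPM, nearly all of it Cd68, with Adgre1 at 0 and Ptprc at 0.05 or less, and the 3 endothelial markers to between 0.34 and 3.18 TPM. The part of these levels in the results below was not tested.

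Because TPM corrects for gene length, levels can be ordered between genes. In the heat control the mean RNA level was 689 ± 20.9 TPM for Gpx4 (SD, n = 2 here and below), 521 ± 18.6 for Sod1, 274 ± 13.2 for Gpx1 and 145 ± 0.297 for Gpx8. Cat followed at 79.8 ± 2.00, Sod2 at 28.0 ± 1.75, Gpx7 at 22.6 ± 0.658, Sod3 at 6.78 ± 0.255 and Gpx3 at 0.375 ± 0.0636 TPM. In the H2O2 and KCl control the order was the same down to Sod2, from Gpx4 at 816 ± 12.8 TPM to Sod2 at 30.0 ± 0.255. There Sod3 stood above Gpx7, at 21.5 ± 2.00 against 6.12 ± 0.00707 TPM. In both controls no library of a gene overlapped those of its neighbour in the order. Sod3 and Gpx7 thus stood at unlike levels in the 2 controls, which were fitted separately and not tested against each other. Gpx3, with 0 to 4 counts in the 10 RNA libraries of the H2O2 and KCl experiment, passed the filter on low counts in the heat experiment only, so 9 genes were tested under heat and 8 under the other stresses. Under heat it passed only through the 42 °C group, where it was high: both libraries of that group and 1 of the other 4 reached the level asked for. It is therefore given by its counts and left out of the counts of members called at 42 °C.

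**Figure D1:**
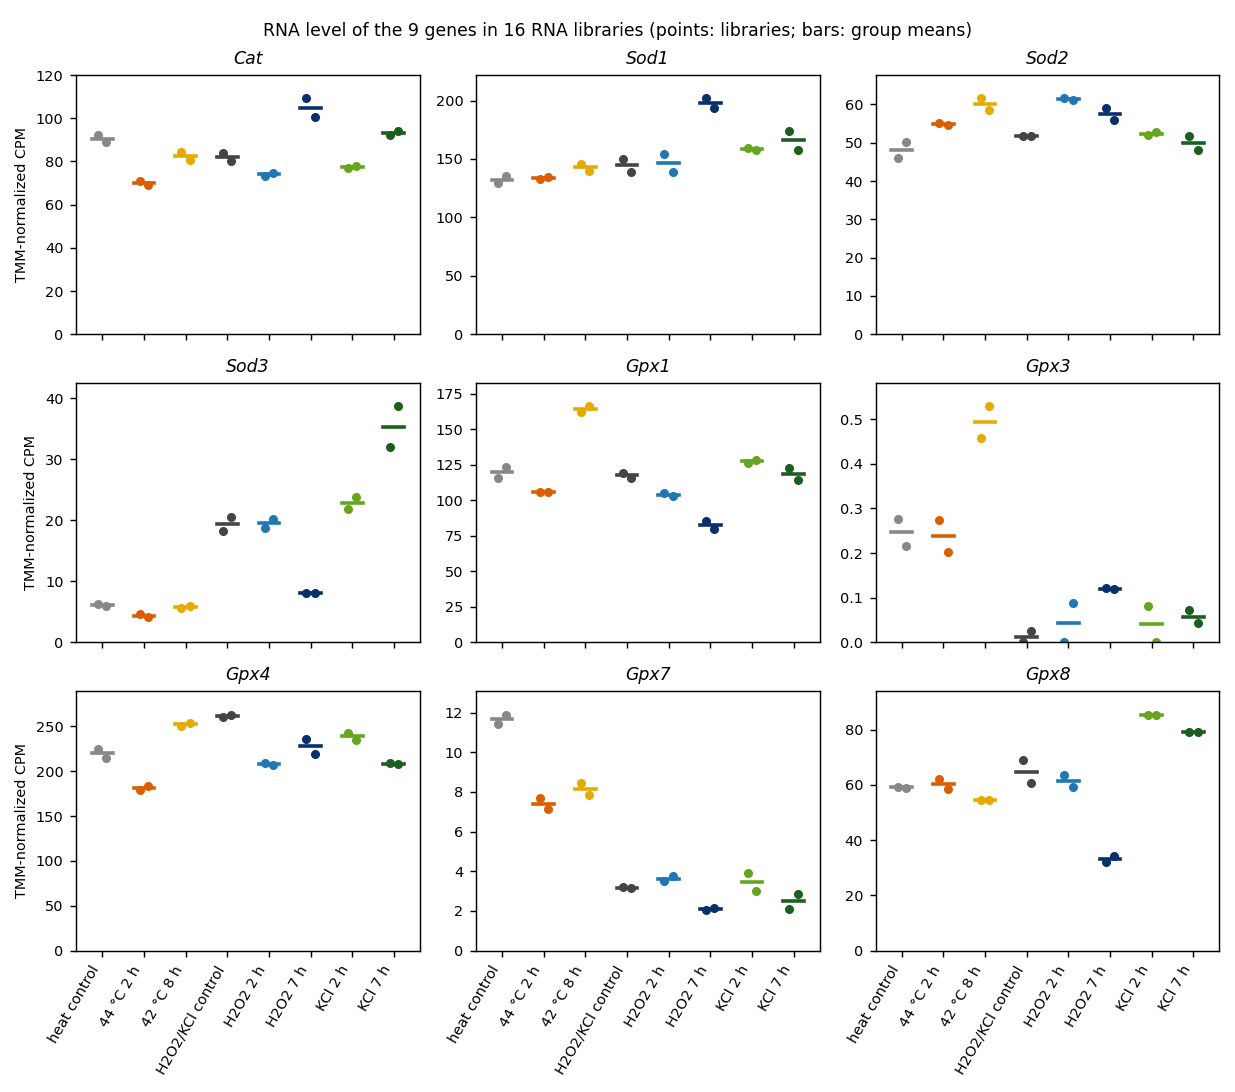
RNA level of the 9 genes (vertical axes from 0, TMM-scaled CPM, normalized within each experiment) in the 16 RNA libraries, with points for libraries and bars for group means. Sod3 fell to 8.16 and 8.15 after H2O2 for 7 h and reached 32.0 and 38.7 after KCl for 7 h.

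After H2O2 for 7 h, Cat, Sod1 and, by little, Sod2 RNA rose while Sod3, Gpx8, Gpx7, Gpx1 and Gpx4 RNA fell. In these bulk libraries, fewer cells that carry an RNA and less of it per cell cannot be told apart. The levels that follow are CPM (counts over 1000000 library counts, with library sizes scaled by edgeR's trimmed mean of M values, TMM), and the changes are log2 fold changes ± SE from edgeR's quasi-likelihood test, adjusted by Benjamini and Hochberg over all genes tested. All 8 members tested passed an adjusted p of 0.05, 3 higher and 5 lower, where 70.5 percent of all 13256 genes tested did so (39.4 higher and 31.1 lower). Their median absolute change, 0.48, was next to the 0.48 of all genes. A call was therefore common in this contrast, and the direction and size of each gene carry the description. In every other RNA contrast the median absolute change of the members, Gpx3 being counted under heat, was below that of all genes. It was 0.13 against 0.31 after KCl for 2 h and 0.24 against 0.49 after KCl for 7 h.

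Cat stood at 83.8 and 80.1 CPM in the control libraries and at 109 and 101 CPM after 7 h of H2O2. Both stressed libraries lay above both controls, a rise of 0.36 ± 0.06 (adjusted p = 8.58e-05, edgeR). Sod1 went from 150 and 139 CPM to 202 and 194 CPM, again without overlap, a rise of 0.45 ± 0.07 (adjusted p = 4.24e-05, edgeR). Without H2O2 7 h replicate 1 the rise of Cat was 0.21 (adjusted p = 0.0226, edgeR). At 2 h neither gene had risen: Cat had 73.4 and 74.8 CPM, a change of -0.15 ± 0.06 that missed the threshold (adjusted p = 0.0521, edgeR; 0.0452 with a replicate block and 0.0443 with no filter on low counts), and Sod1, with 154 and 139 CPM, overlapped the controls. For both genes the 7 h libraries lay above the 2 h libraries. Set directly against each other, 7 and 2 h of H2O2 differed for 6 of 8 members, where 73.4 percent of all genes did (37.3 higher and 36.1 lower).

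These 2 genes were both higher after 7 h of H2O2 or KCl, though each KCl call was lost in 5 of 11 alternative analyses. Under heat they did not move together: by edgeR, Cat changed by -0.37 and Sod1 by 0.01 at 44 °C, and by -0.13 and 0.11 at 42 °C. The 250 bases before their RefSeq transcription start sites (build GRCm38.p6) are printed here as a description. Whether the genes share a control was not tested. Cat lies on the minus strand of chromosome 2 (chr2:103453904-103485153) and its window is chr2:103485154-103485403. Sod1 lies on the plus strand of chromosome 16 (chr16:90220762-90226333) and its window is chr16:90220512-90220761. Capitals mark matches, on either strand, to 5 motifs: the core of the antioxidant response element (TGACNNNGC), the GC box spelled as GGGCGG, the CAAT box spelled as CCAAT, the TATA box spelled as TATAAA, and GTAAACA, a motif of forkhead factors.
Cat: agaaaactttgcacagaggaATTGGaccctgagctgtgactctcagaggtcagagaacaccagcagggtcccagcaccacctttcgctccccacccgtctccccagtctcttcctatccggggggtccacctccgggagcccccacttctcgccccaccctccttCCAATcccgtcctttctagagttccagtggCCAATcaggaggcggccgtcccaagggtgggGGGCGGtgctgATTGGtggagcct
Sod1: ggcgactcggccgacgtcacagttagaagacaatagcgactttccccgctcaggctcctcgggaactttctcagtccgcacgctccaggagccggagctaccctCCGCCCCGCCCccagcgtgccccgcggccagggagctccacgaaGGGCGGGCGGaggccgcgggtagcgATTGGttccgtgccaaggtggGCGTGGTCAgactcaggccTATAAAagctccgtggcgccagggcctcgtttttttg
The Cat window, 62% G and C, held 4 matches to the CAAT box and 1 to the GC box. The Sod1 window, 66.4% G and C, held 4 to the GC box, which overlap in pairs so that 3 bases lie in 2 matches, and 1 each to the antioxidant response core, the CAAT box and the TATA box. Of 32841 RefSeq windows of the same length, 10.2% held the antioxidant response core, 32.7% the GC box, 33.9% the CAAT box, 12.4% the TATA box and 3.17% the forkhead motif. A match is a string of letters and not a measured binding site.

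Sod2, the mitochondrial enzyme, was slightly higher at both times. It had 51.7 and 51.8 CPM in the control, 61.6 and 61.1 after 2 h of H2O2 and 59.0 and 55.9 after 7 h. No stressed library overlapped the controls, and the rises were 0.24 ± 0.06 at 2 h (adjusted p = 0.00352, edgeR) and 0.15 ± 0.06 at 7 h (adjusted p = 0.0383, edgeR). The 7 h call was lost in 10 of 11 alternative analyses, with an adjusted p of 0.763 without H2O2 7 h replicate 1, and the 2 h call without H2O2 2 h replicate 1 (0.0800).

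Sod3, the secreted dismutase, made the largest change of the 8 members at 7 h. Its RNA was 18.2 and 20.6 CPM in the control, 18.8 and 20.3 after 2 h and 8.16 and 8.15 after 7 h of H2O2. The 7 h libraries lay below every control and 2 h library, a fall to 0.421 of the control (-1.25 ± 0.11, adjusted p = 1.42e-07, edgeR), while the 2 h libraries lay within the control range. Gpx8 behaved alike in time. It had 69.0 and 60.5 CPM in the control, 63.6 and 59.1 at 2 h and 32.1 and 34.3 at 7 h, a 7 h fall to 0.512 of the control (-0.97 ± 0.07, adjusted p = 2.76e-08, edgeR). Gpx7, the scarcer of the endoplasmic reticulum peroxidases, went from 3.19 and 3.14 CPM to 2.03 and 2.14 at 7 h (-0.61 ± 0.18, adjusted p = 0.00715, edgeR), from 154 and 120 counts to 67 and 54.

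The 2 selenoprotein peroxidases with RNA in every library were lower at both times. Gpx1 had 120 and 116 CPM in the control, 105 and 103 after 2 h and 85.6 and 79.6 after 7 h of H2O2. The 3 groups did not overlap, and the falls were -0.18 ± 0.06 at 2 h (adjusted p = 0.0203, edgeR) and -0.51 ± 0.06 at 7 h (3.04e-06). Gpx4 had 260 and 263 CPM in the control, 209 and 207 at 2 h and 236 and 219 at 7 h. Its falls were -0.33 ± 0.06 at 2 h (adjusted p = 0.000264, edgeR) and -0.20 ± 0.06 at 7 h (0.00637). At 2 h only Sod2, Gpx1 and Gpx4 passed the test, 3 of 8 members where 53.9 percent of all genes did (27.3 higher and 26.5 lower). The Gpx1 call at 2 h was lost without H2O2 2 h replicate 2 (adjusted p = 0.111) or control replicate 1 (0.104), and the Gpx4 call at 7 h without H2O2 7 h replicate 2 (0.0912). Without H2O2 7 h replicate 1 the 7 h change of Gpx4 was -0.34.

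KCl, which raises extracellular potassium and osmolarity, gave another pattern. After 2 h, 1 of 8 members passed the test, where 54.2 percent of all genes did (27.2 higher and 27.0 lower): Gpx8 rose from 69.0 and 60.5 CPM to 85.4 and 85.3 (0.40 ± 0.07, adjusted p = 0.000255, edgeR). After 7 h, 5 of 8 passed, 4 higher and 1 lower, where 68.8 percent of all genes did (37.2 higher and 31.6 lower). Sod3 had 21.9 and 23.8 CPM at 2 h and 32.0 and 38.7 at 7 h, against 18.2 and 20.6 in the control. All 4 KCl libraries stood above the controls, and the 7 h rise of 0.86 ± 0.10 (adjusted p = 1.99e-06, edgeR) came to 1.82 times the control. Gpx8 was still higher at 7 h, at 79.0 CPM in both libraries (0.29 ± 0.07, adjusted p = 0.00223, edgeR). Set against each other, 7 and 2 h of KCl differed for 4 of 8 members, where 68.8 percent of all genes did (35.1 higher and 33.7 lower).

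Cat and Sod1 were again higher at 7 h, by less than after H2O2. Cat had 92.0 and 94.2 CPM (0.18 ± 0.06, adjusted p = 0.0135, edgeR) and Sod1 174 and 158 CPM (0.20 ± 0.07, adjusted p = 0.0211, edgeR). Both calls were lost without control replicate 2 (adjusted p = 0.101 for Cat and 0.170 for Sod1), that of Cat also without KCl 7 h replicate 2 (0.0733) and that of Sod1 without KCl 7 h replicate 1 (0.208). They were also lost on log2(TPM + 1) with limma, at 0.083 for Cat (adjusted p = 0.214) and 0.096 for Sod1 (0.218), and by edgeR with only the control and KCl 7 h fitted (0.0523 and 0.0668). Gpx4 fell to 209 and 208 CPM (-0.33 ± 0.06, adjusted p = 0.000159, edgeR). Gpx1, at 122 and 115 CPM, overlapped the control range, and so did Sod2 at 51.8 and 48.2 CPM. Sod3 and Gpx4 at 2 h had changes of 0.24 ± 0.10 (adjusted p = 0.0552) and -0.13 ± 0.06 (adjusted p = 0.0680) by edgeR, which missed the threshold. On log2(TPM + 1) with limma, the median of all genes at 2 h stood at -0.07. There 2567 were called higher and 4540 lower, in place of 3609 and 3576 by edgeR. Sod3 passed with a replicate block (0.0217), with no filter on low counts (0.0452), without control replicate 2 (0.32, adjusted p = 0.0411) and without KCl 2 h replicate 1 (0.30, 0.0463), and Gpx4 passed on log2(TPM + 1) with limma (-0.24, 0.00317).

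**Figure D2:**
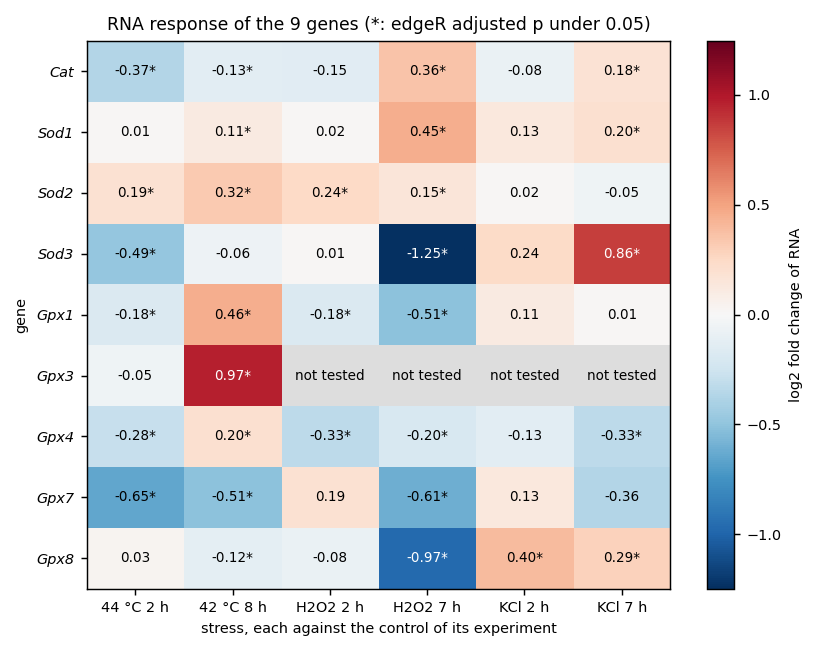
Log2 fold change of RNA for each gene (rows) in each stress (columns) against the control of its own experiment, from edgeR's quasi-likelihood fits, coloured from blue (lower) to red (higher) with an asterisk at an adjusted p under 0.05. Sod3 and Gpx8 carry opposite colours in the 7 h columns of H2O2 and KCl, and the 42 °C column depends on the scale as stated in the text. The asterisk of Gpx3 at 42 °C supports nothing, since the filter on low counts chose the gene.

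H2O2 and KCl share their control, so the stresses were set against each other directly. At 2 h, 4 of 8 members differed, where 51.3 percent of all genes did (27.0 higher and 24.2 lower): Sod2 was higher after H2O2 than after KCl by 0.23 ± 0.06 (adjusted p = 0.00677, edgeR), and Gpx8 (-0.48), Gpx1 (-0.29) and Gpx4 (-0.20) were lower. At 7 h, 6 of 8 differed, where 78.4 percent of all genes did (41.0 higher and 37.4 lower). An absolute change of 1 or more was seen for 2 of the 8 and for 35.5 percent of all genes. The gap was widest for Sod3, at 8.16 and 8.15 CPM after H2O2 and 32.0 and 38.7 after KCl (-2.11 ± 0.11, adjusted p = 2.72e-10, edgeR), and next for Gpx8 (-1.25 ± 0.07, adjusted p = 1.21e-09, edgeR). Gpx1 was also lower after H2O2 (-0.52), and Sod1 (0.25), Sod2 (0.20) and Cat (0.17) were higher. The last 3 calls, and that of Gpx4 at 2 h, were each lost without 1 library. The adjusted p was 0.0595 for Sod1 without KCl 7 h replicate 2. For Sod2 it was 0.118 without H2O2 7 h replicate 1 and 0.0925 without KCl 7 h replicate 2, and for Cat 0.261 and 0.0868 without replicate 1 of H2O2 and of KCl. For Gpx4 at 2 h it was 0.0649 without H2O2 2 h replicate 2. On log2(TPM + 1) with limma the Gpx4 difference at 2 h was -0.084 (adjusted p = 0.218). The median of all genes stood at 0.07 there, with 4264 called higher and 1986 lower in place of 3582 and 3212 by edgeR. DESeq2 gave an adjusted p of 0.0522 for Cat at 7 h.

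After heat at 44 °C for 2 h, 6 of the 9 members tested passed, 1 higher and 5 lower. Of all 12747 genes, 71.0 percent did (35.4 higher and 35.7 lower). The median absolute change of the members, 0.19 with Gpx3 counted, was below the 0.33 of all genes. Gpx7 went from 11.4 and 11.9 CPM in the heat control to 7.70 and 7.12 (-0.65 ± 0.09, adjusted p = 1.03e-05, edgeR). Sod3 went from 6.27 and 5.94 to 4.58 and 4.14 CPM (-0.49 ± 0.12, adjusted p = 0.00183, edgeR). Cat went from 92.1 and 88.9 to 71.2 and 69.1 CPM (-0.37 ± 0.04, adjusted p = 4.47e-06, edgeR). None of these 3 genes overlapped its control. Gpx4 (-0.28) and Gpx1 (-0.18, and -0.11 on the log2(TPM + 1) scale) were lower too, and Sod2 was higher by 0.19 ± 0.05 (adjusted p = 0.00649, edgeR), a call lost without heat control replicate 1 (0.114). Sod1, at 133 and 134 CPM against 129 and 136, and Gpx8, at 62.1 and 58.5 against 59.2 and 58.9, overlapped their controls.

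After 42 °C for 8 h, 7 of the 8 members other than Gpx3 passed, 4 higher and 3 lower, where 63.6 percent of all genes did (31.7 higher and 31.9 lower). Gpx1 rose from 116 and 124 CPM to 162 and 166 (0.46 ± 0.04, adjusted p = 6.2e-07, edgeR), the opposite direction to 44 °C. Gpx7 fell again, to 8.47 and 7.86 CPM (-0.51 ± 0.09, adjusted p = 0.000146, edgeR). These 2 genes kept direction and call on log2(TPM + 1), with changes of 0.27 and -0.67 there. The scale mattered: on log2(TPM + 1), tested with limma, the median of all genes stood at -0.16 in place of -0.01, and the calls over all genes were 1945 higher and 6287 lower in place of 4041 and 4072. On that scale Sod2 (0.32 by edgeR, 0.13 by limma) and Gpx4 (0.20 and 0.01) lost their calls, and Sod1 (0.11) changed sign to -0.079 without a call, while Cat and Gpx8 stood further down, at -0.31 and -0.32.

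Cat (-0.13), Sod1 and Gpx8 (-0.12) were called at 42 °C with adjusted p between 0.0195 and 0.0465 by edgeR. Each call was lost in some fits that left out 1 library. The Gpx8 call was lost without any 1 of its 4 libraries, while its change stayed between -0.12 and -0.11. The Cat call was lost without control replicate 1 (0.171) or 42 °C replicate 2 (0.150), and the Sod1 call without replicate 1 of the control (0.248) or of 42 °C (0.242). Gpx3, the secreted selenoprotein, had 16 and 15 counts at 42 °C, 12 and 8 in the control and 10 and 7 at 44 °C. Its edgeR call at 42 °C (0.97 ± 0.39, adjusted p = 0.0431) supports nothing, since the filter chose it, and was lost with no filter on low counts (0.0858), under DESeq2 (0.263), under a replicate block (0.0524) and without any 1 of the 4 libraries (0.0874 to 0.185).

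Set against each other, 42 °C for 8 h and 44 °C for 2 h differed for 6 of the 8 members other than Gpx3, 5 higher at 42 °C and 1 lower, where 75.1 percent of all genes did (37.9 higher and 37.2 lower). Gpx1 (0.64 ± 0.04, adjusted p = 9.9e-09, edgeR) and Gpx4 (0.48 ± 0.04, adjusted p = 8.62e-08, edgeR) were higher at 42 °C, and were called on log2(TPM + 1) too at smaller sizes, 0.38 and 0.23. Cat (0.24) and Sod2 (0.13) were higher by edgeR and changed sign on the TPM scale, to -0.016 and -0.12. Sod1 (0.10 ± 0.04) missed the threshold by edgeR (adjusted p = 0.0557), was called higher at 42 °C with a replicate block (0.0425) and was called lower on log2(TPM + 1) with limma (-0.16, 0.00432). Sod3 (0.42) kept its sign but lost its call on that scale. There the median of all genes stood at -0.20, with 2764 called higher and 6798 lower in place of 4829 and 4743 by edgeR. The values of Cat, Sod1 and Sod2 on that scale all lay above this median. The Gpx3 difference (1.02), again chosen by the filter, was lost with no filter (0.0654), under DESeq2 (0.222) and without any 1 of the 4 libraries (0.0678 to 0.182). Gpx8 (-0.15, and -0.38 on the TPM scale) was lost without 42 °C replicate 1 (0.0666) or 2 (0.0568) or 44 °C replicate 1 (0.111), and Sod2 without 42 °C replicate 1 (0.225) or 44 °C replicate 1 (0.0622) or 2 (0.0855).

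Ribosome footprints were read at lower depth. Their ratio to RNA in the control, as footprint TPM over RNA TPM, had a median of 0.639 over 10467 genes. Gpx4, at 0.315, and Gpx1, at 0.381, stood below it in every pairing of control libraries (0.247 to 0.385 and 0.368 to 0.394). Sod3 stood at 0.441, but its pairings ran from 0.246 to 0.664, across that median, on 38 and 15 footprint counts. Cat stood at 0.667, Gpx8 at 0.918, Sod1 at 1.05 and Gpx7, on 17 and 10 footprint counts, at 1.12. Sod2 stood highest, at 3.66, above 97.5 percent of genes. That position depends on the lengths used for TPM: as a ratio of CPM, Sod2 stood at 1.30, above 82.7 percent of genes, and the median gene at 0.705. By CPM Sod1 stood highest of these members, at 1.64, above 89.5 percent of genes. Gpx1 (0.476) and Gpx4 (0.530) stood below the median by CPM too.

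**Figure D3:**
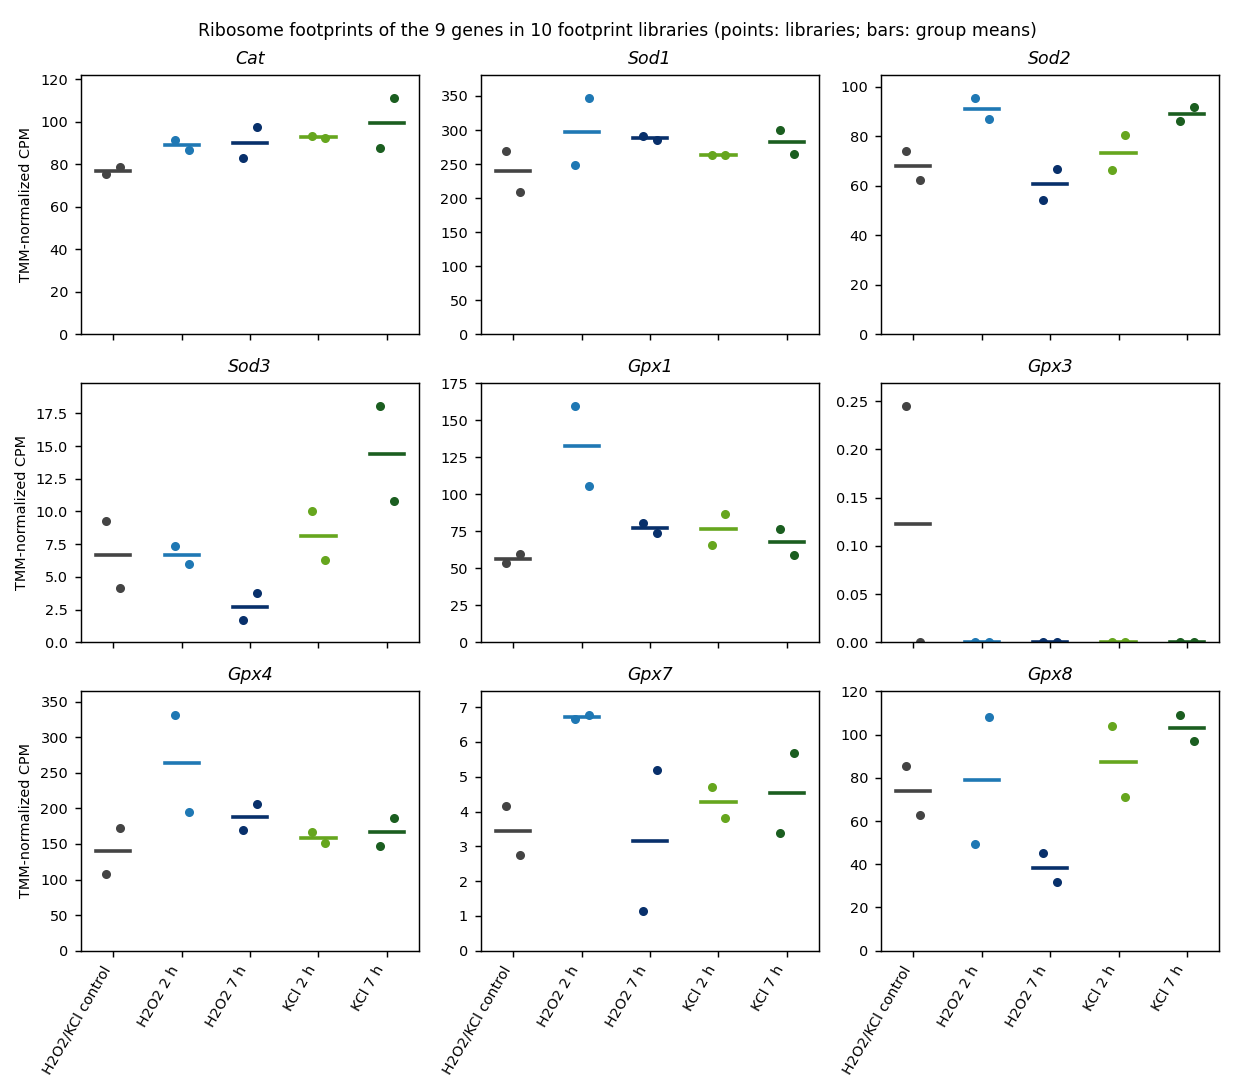
Ribosome footprints of the 9 genes (vertical axes from 0, TMM-scaled CPM) in the 10 footprint libraries, with points for libraries and bars for group means. Gpx1 stood at 159 and 106 after H2O2 for 2 h and at 53.6 and 59.4 in the control.

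After H2O2 for 2 h, Gpx1 footprints rose relative to those of other genes, while its RNA fell relative to other RNA. Footprints and RNA were each normalized within their own kind of library. A change in the translation of all genes would thus not be seen here, and was not tested. Gpx1 footprints were 53.6 and 59.4 CPM in the control (219 and 216 counts) and 159 and 106 CPM after 2 h (239 and 546 counts). Both stressed libraries lay above every other footprint library of the gene, a rise of 1.22 ± 0.24 (adjusted p = 0.0207, edgeR). Gpx1 was the 1 member of 8 called, where 1.91 percent of all 10545 genes were (1.14 higher and 0.768 lower). Gpx4 footprints were 108 and 172 CPM in the control and 332 and 195 after 2 h, also without overlap, but the change of 0.90 ± 0.28 missed the threshold (adjusted p = 0.118, edgeR). In both genes the higher value came from replicate 1, the library of lowest depth. Without it the Gpx1 footprint change was 0.91 (adjusted p = 0.0937, edgeR), and the call was also lost without control replicate 1 (0.134) or 2 (0.0935). Without H2O2 2 h replicate 2, Gpx4 passed (0.0496).

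At 7 h of H2O2, 1 of 8 members was called in footprints, where 27.7 percent of all genes were (17.2 higher and 10.6 lower). Gpx8 went from 85.4 and 62.9 CPM to 45.3 and 31.7 (-0.95 ± 0.33, adjusted p = 0.0460, edgeR), in the direction of its RNA. That call was lost under a replicate block (0.0512), on the TPM scale and without control replicate 1 (0.188) or H2O2 7 h replicate 1 (0.0642) or 2 (0.245). On log2(TPM + 1) with limma, the calls over all genes were 1853 higher and 640 lower in place of 1810 and 1115. Sod3 footprints, 9.29 and 4.12 CPM in the control and 1.71 and 3.74 after 7 h, rested on 6 and 13 counts and missed the threshold (-1.30 ± 0.53, adjusted p = 0.0878, edgeR), except without control replicate 2 (0.0361). After KCl none of the 8 members was called by edgeR, at 2 h (where 6.86 percent of all genes were, 1.79 higher and 5.06 lower) or at 7 h (20.4 percent, 10.5 higher and 9.83 lower). DESeq2 called 0 there too, and the count at an unadjusted p under 0.05 was 0 at 2 h and 1 at 7 h, Sod3 (1.07 ± 0.44, adjusted p = 0.105, edgeR).

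Translational efficiency, footprints relative to RNA, was tested as an interaction in 1 edgeR model over 20 libraries and 10480 genes. As with footprints, a change in efficiency is relative to other genes. After H2O2 for 2 h efficiency rose for Gpx1 by 1.33 ± 0.23 (adjusted p = 0.00137), to 2.52 times the control, and for Gpx4 by 1.18 ± 0.30 (adjusted p = 0.0174), to 2.27 times. These were 2 of 8 members, where 11.4 percent of all genes were called (3.98 higher and 7.46 lower). The Gpx1 call held in all 12 alternative analyses, with values from 1.05 to 1.63. The Gpx4 call was lost in 5 of 12, each leaving out 1 library: the H2O2 2 h footprint replicate 1 (0.77, adjusted p = 0.0760), the control footprint replicate 1 (0.87, 0.0727), the H2O2 2 h RNA replicate 2 (0.0625) and the control RNA replicate 1 (0.0516) or 2 (0.0503). The other 6 members were not called.

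At 7 h of H2O2, Gpx1 was still higher, by 0.97 ± 0.23 (adjusted p = 0.0128, edgeR), the 1 of 8 members called, where 9.27 percent of all genes were (4.69 higher and 4.57 lower). The call was lost without the H2O2 7 h RNA replicate 2 (0.0562), the control RNA replicate 1 (0.0522) or the H2O2 7 h footprint replicate 1 (0.0684). Gpx4, at 0.63 ± 0.30, missed the threshold (adjusted p = 0.203, edgeR), except without the control footprint replicate 2 (0.0462). After KCl none of the 8 members was called in efficiency by edgeR, at 2 h (12.8 percent of all genes, 3.58 higher and 9.18 lower) or 7 h (5.57 percent, 1.69 higher and 3.88 lower), and voom, the other tool run, called 0 as well. The count at an unadjusted p under 0.05 was 0 at 2 h and 1 at 7 h, Sod2 (0.47 ± 0.17, adjusted p = 0.119, edgeR). Whether the efficiency change differed between H2O2 and KCl, or between 2 and 7 h, was not tested.

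**Figure D4:**
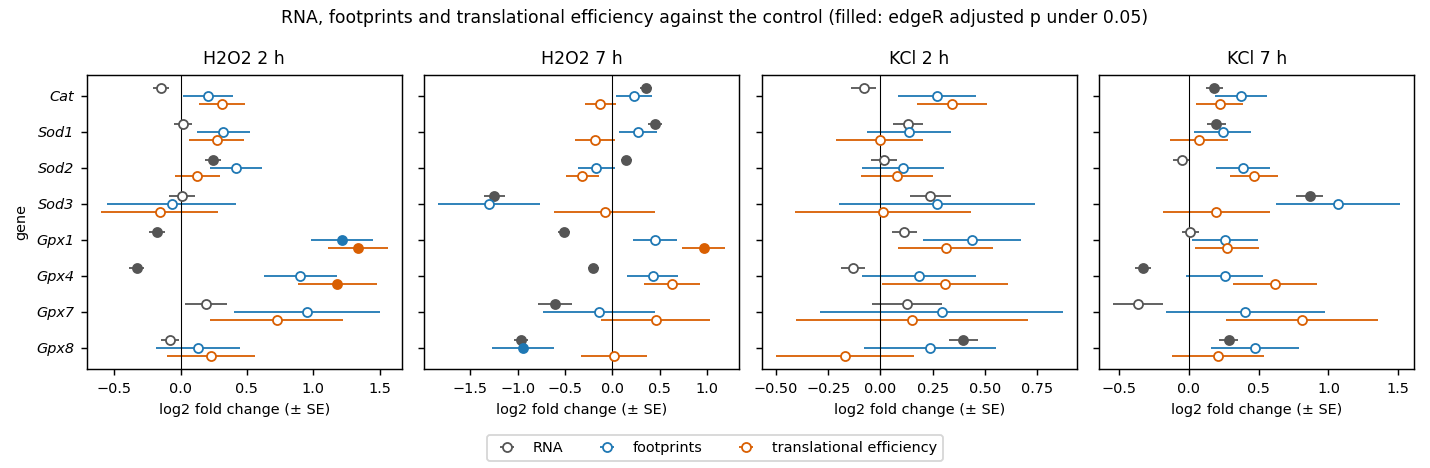
Log2 fold change ± SE of RNA, footprints and translational efficiency for the 8 members tested (rows), in 4 panels for H2O2 and KCl at 2 and 7 h against their shared control, with filled points at an edgeR adjusted p under 0.05. In the H2O2 panels the efficiency of Gpx1 lies to the right of 0, at 1.33 and 0.97, while its RNA lies to the left.

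Gpx1 and Gpx4 belong to the selenoproteins, of which 22 genes were listed and 16 tested for efficiency. After H2O2 for 2 h, 4 rose (Gpx1, Gpx4, Selenoh and Sephs2) and 1 fell, Txnrd1, with a median of 0.21 (0.18 without the members) against -0.01 for all genes, of which 3.98 percent rose and 7.46 fell. Selenoh rose by 1.41 ± 0.40 (adjusted p = 0.0300, edgeR) and Sephs2, which makes the selenium donor, by 1.01 ± 0.28 (0.0257). Footprints of these 2 genes changed by 1.33 ± 0.46 and 0.79 ± 0.34, without a call (adjusted p = 0.161 and 0.257, edgeR). Txnrd1, the cytosolic thioredoxin reductase, fell by 1.44 on the log2 scale (SE 0.24, adjusted p = 0.00135, edgeR), while its RNA rose by 1.55 ± 0.06. Its footprints changed by 0.14 ± 0.23, without a call (adjusted p = 0.809, edgeR). At 7 h, 3 rose (Gpx1, Selenoh at 1.49 ± 0.43 and Sepn1 at 0.57 ± 0.15) and none fell, with a median of 0.31 (0.26 without the members) against 0.06 (4.69 percent of all genes rose and 4.57 fell). After KCl, 1 rose at 2 h (Sephs2, 1.10 ± 0.29; 3.58 percent of all genes rose and 9.18 fell) and 1 fell at 7 h (Selk, -0.77 ± 0.21; 1.69 percent rose and 3.88 fell). Selenoh, Sephs2, Sepn1, Selk and the efficiency of Txnrd1 were singled out after their values were seen. The alternative analyses, with each library left out among them, were run for the members only, so how far these calls hold was not tested. The list thus held genes whose ratio of footprints to RNA moved in both directions at 2 h of H2O2.

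**Figure D5:**
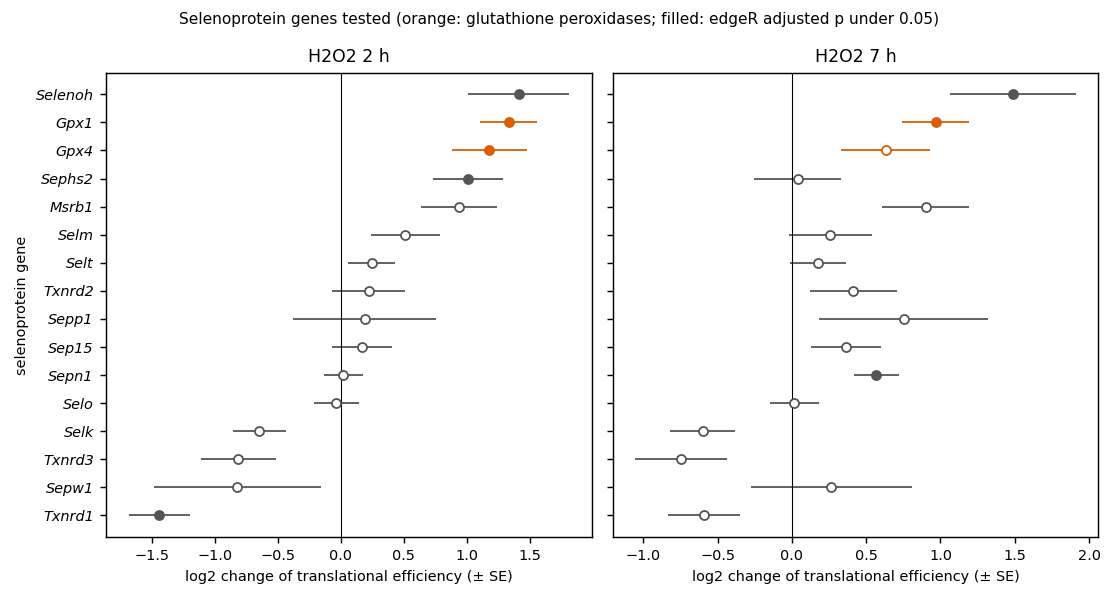
Log2 change ± SE of translational efficiency for the 16 selenoprotein genes tested (rows), after H2O2 for 2 h (left) and 7 h (right), with glutathione peroxidases in orange and filled points at an edgeR adjusted p under 0.05. At 2 h the values run from -1.44 for Txnrd1 to 1.41 for Selenoh.

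The RNA of the listed selenoproteins moved both ways. After H2O2 for 7 h, 2 of 17 tested rose and 9 fell, with a median of -0.20 against 0.08 for all genes. Without the members, 2 of 15 rose and 7 fell, with a median of -0.06. After KCl for 7 h, 3 of 17 rose and 6 fell, or 3 and 5 of 15 without the members. Of all genes, 39.4 percent rose and 31.1 fell after H2O2, and 37.2 rose and 31.6 fell after KCl. At 44 °C, 3 of 18 rose and 11 fell (35.4 and 35.7 percent of all genes). At 42 °C, 9 of 18 rose and 7 fell (31.7 and 31.9 percent), and the 9 include Gpx3, which the filter chose. Without the members, 3 of 15 rose and 9 fell at 44 °C, and 6 of 15 rose and 7 fell at 42 °C. The 9 genes of selenocysteine incorporation had 1 higher and 7 lower after KCl for 7 h, led by Pstk (-1.98 ± 0.13) and Eefsec (-1.63 ± 0.12), and 2 higher and 3 lower after H2O2 for 7 h, beside the same shares of all genes. In efficiency, 1 of these 9, Sephs2, was higher after 2 h of H2O2.

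Other genes that handle peroxide and superoxide (22 genes, all tested) had 13 higher and 6 lower in RNA after H2O2 for 7 h, with a median of 0.25 against 0.08 for all genes (39.4 percent higher and 31.1 lower). Srxn1, which repairs overoxidised peroxiredoxins, rose by 1.96 ± 0.07 (adjusted p = 6.28e-12, edgeR) and Txnrd1 by 1.88 ± 0.06. The changes of Cat and Sod1 in the same contrast, 0.36 and 0.45, were smaller. After KCl for 7 h the same list had 6 higher and 11 lower (37.2 and 31.6 percent of all genes). Of 24 peroxisome genes, 5 were higher and 12 lower after H2O2 for 7 h, and 4 higher and 17 lower after KCl for 7 h, against the shares just given, while Cat was higher in both. Of 16 genes of known regulators, 11 were higher and 4 lower after H2O2 for 7 h (39.4 and 31.1 percent of all genes), led by Esrra (2.33 ± 0.07) and Foxo3 (1.91 ± 0.07), a forkhead factor known to act on Cat and Sod2.

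The RNA pattern was mean log2 CPM over the 8 groups, with each gene centred on its own mean within each experiment, so level is left out. The genes nearest to each member in this pattern, by Euclidean distance among 12451 genes, were named as a description. They were Elf2 (0.128) for Cat, Tnpo3 (0.122) for Sod1, Socs6 (0.0655) for Sod2 and Ndst1 (0.164) for Sod3. For the peroxidases they were Idh3a (0.0706) for Gpx1, Tmem234 (0.137) for Gpx4, Ostc (0.206) for Gpx7 and Glg1 (0.217) for Gpx8. The median gene lay between 1.08 (Sod2 and Sod1) and 1.86 (Sod3) from these members.

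The study also called transcripts that run on past the end of a gene, and reads of such transcripts entering the next gene (read-in), for 6399 gene pairs. Of these, 13 pairs held a member. Transcription past the end of Sod1, towards Hunk, was called in all 16 RNA libraries, controls included. It was called in 28.5% of all pair and library combinations, with a median of 3 libraries per pair. Past the ends of Cat, Sod2, Sod3, Gpx1, Gpx4 and Gpx8 it was called in 1 to 3 libraries, and Gpx3 and Gpx7 were the upstream gene of no pair. Genes upstream of Cat (Nat10), Sod3 (Pacrgl) and Gpx1 (Rhoa) were called in 6 libraries each. Read-in was called in none of the 13 pairs in any library, where 1.38% of all pair and library combinations were called in the authors' deposited calls.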

How the data were processed

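Gene levels were taken from the tables that the authors deposited for each assay. The expected counts (RSEM, whole numbers) and TPM were made by the authors, and STAR, RSEM, Bowtie and build mm10 are named per the submitters' processing notes, without roles or versions. The read-in estimate of each gene pair is a ratio as deposited by the authors, and the calls are their TRUE or FALSE. No source used here says whether counting used strand. Another 12 columns fit no sample in the labels and were left out.

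Expected counts were fitted in R 4.3.3 with edgeR 4.0.16 (filterByExpr, TMM, quasi-likelihood F test, Benjamini-Hochberg over all genes, threshold 0.05), separately for heat, H2O2 and KCl RNA and footprints, with footprints against RNA as an interaction for translational efficiency. The SE was taken from the fold change and F. Alternatives used DESeq2 1.42.0 (fit or size factors), limma 3.58.1 on log2(TPM + 1) or log2(TPM + 0.1), voom, no filter, a replicate block, only the groups compared, and each library left out. The fits were tested on simulated data, where the share of false calls in the heat fit was above the threshold, so heat calls with an adjusted p close to 0.05 are the least secure. The simulation changed only a small part of the genes, by more than most members changed here. Its share of false calls need not hold for these data.

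All 9 members were named by rule. From the lists (selenoproteins, selenocysteine incorporation, other peroxide and superoxide handling, peroxisome, regulators) the 2 called genes of largest RNA change per stress could be named, and per member the genes nearest in RNA pattern. Selenoi and Selenos were split over 2 symbols and left out. Members and lists were chosen with earlier results of these data known. Marker lists (fibroblast, epithelial, leukocyte, endothelial) served to check the cell type. Promoter windows came from RefSeq, build GRCm38.p6. The table holds no window for Sod3.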

Additional observations from a re-analysis of the deposited data

Results flagged for a closer look

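The RNA response of several members differed between 2 and 7 h of the same stress when the times were set directly against each other with edgeR's quasi-likelihood test (Benjamini-Hochberg over all genes). Between 2 and 7 h of H2O2, Cat rose by 0.50 (SE 0.06, adjusted p = 3.32e-06) and Sod1 by 0.43 (SE 0.07, adjusted p = 6.26e-05) on the log2 scale. Over the same interval the change was -1.26 for Sod3, -0.89 for Gpx8, -0.80 for Gpx7 and -0.33 for Gpx1. All 6 differences held in each of 11 alternative analyses.

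Between 2 and 7 h of KCl, Sod3 rose by 0.63 and Cat by 0.26, while Gpx4 changed by -0.20 and Gpx7 by -0.49. The first 3 held in each of 11 alternatives. The Gpx7 difference (adjusted p = 0.0311, edgeR), on 59 to 95 counts per library, was lost in 4 of 11: the adjusted p was 0.264 without KCl 2 h replicate 1 and 0.292 without KCl 7 h replicate 1, with changes of -0.30 and -0.27.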

How the results depend on the processing

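Of 63 called member results, 36 kept direction and call in every alternative run. The 63 count the Gpx3 calls at 42 °C and at 42 °C against 44 °C, which support nothing, since the filter chose the gene. Over 696 alternatives of these results, 594 kept both, 96 lost the call and 6 changed sign. Of 80 results with an unadjusted p of 0.05 or more, 9 of 904 alternatives made a call, none with the other sign. Of the uncalled results below 0.05, Sod1 at 42 °C against 44 °C was called with the other sign on both TPM scales.

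At 42 °C for 8 h (Gpx3 counted here), 5 members were called by DESeq2 and 5 on either TPM scale, where Sod1 changed sign to -0.079 on both. For 42 °C against 44 °C the TPM scales gave -0.016 (both) for Cat, -0.16 (both) for Sod1, and -0.12 (both) for Sod2. The median of all genes stood at -0.20 on log2(TPM + 1) and -0.24 on log2(TPM + 0.1) in that contrast. After KCl for 2 h, 2 members were called with no filter or a replicate block and 3 on either TPM scale, and after KCl for 7 h 3 with only the 2 groups compared. In footprints after H2O2 for 2 h, DESeq2 called 2, and the TPM scales and the 2 groups alone 0. At 7 h the replicate block and the TPM scales called 0. As CPM the control ratio of footprints to RNA was 0.932 for Cat, 1.64 for Sod1, 1.30 for Sod2, 0.476 for Gpx1, 0.530 for Gpx4 and 1.14 for Gpx8. Where no value above shows a cause, the cause was not tested.

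With 1 library left out, the members called ran from 4 to 6 at 42 °C, 4 to 5 for 42 °C against 44 °C, 1 to 2 after KCl for 2 h and 3 to 5 for 7 h. In footprints after H2O2 they ran from 0 to 2 at either time, and in efficiency from 1 to 2 at 2 h and 0 to 2 at 7 h. The group left with 1 library is then assumed to vary like the others.

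The replicate block kept 61 of 63 calls, losing Gpx3 at 42 °C and Gpx8 in footprints after H2O2 for 7 h. It added Sod1 at 42 °C against 44 °C (adjusted p = 0.0425, edgeR), Cat after H2O2 for 2 h (0.0452), Sod3 after KCl for 2 h (0.0217) and for H2O2 against KCl at 2 h (0.0317), and Gpx4 for 7 h against 2 h of H2O2 (0.0469) and for H2O2 against KCl at 7 h (0.0490). Libraries share a number only: deviations of same-numbered libraries correlated from -0.025 to 0.12 under heat, -0.053 to 0.054 in H2O2 and KCl RNA and -0.38 to 0.42 in footprints. Summing rows of older symbols was not run, since no member has such a row. Footprint depth limited Gpx7 and Sod3, at 4 to 48 counts per library.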
